A study of Mus musculus with 90 samples.

Results

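Rgs5, Pdgfrb, Kcnj8, Vtn, Acta2, Tagln, Myl9 and Pln are expressed by pericytes and vascular smooth muscle cells, together called mural cells. They are 8 of the 37991 genes in a count table of 90 brain libraries and were found there by matching Ensembl identifiers to these symbols. They were picked because several of them were lower in the hypothalamus of mice killed 120 min after seeing an intruder than in the matching controls. The values of that comparison therefore chose the genes, and they are given below as a description with no test, as is every comparison that uses those 10 libraries. All 8 genes passed the filter on low counts in the 3 regions.

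Mural cells wrap the endothelial tube of brain vessels. Smooth muscle cells form the contractile sheath of arteries and arterioles, whereas pericytes sit on capillaries and take part in the upkeep of the blood-brain barrier. Endothelial cells secrete platelet-derived growth factor B, which recruits pericytes through the receptor encoded by Pdgfrb. Contractile genes of smooth muscle are classic targets of serum response factor, which binds a short sequence named the CArG box and acts with myocardin-family coactivators.

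All tissue came from resident C57BL/6J males that had been housed with a female to establish a territory; the labels name no engineered allele. In the intruder groups, an unfamiliar BALB/c male in a wire mesh cage was placed in the resident's cage for 5 min, and control residents received the same mesh cage holding a paper cup. Residents were killed 30, 60 or 120 min later, and frontal cortex, hypothalamus and amygdala were dissected, which gave 18 groups. Each group had 5 libraries, except 3 for hypothalamus controls at 30 min and 6 for each frontal cortex group at 120 min. The labels name 32 animals, of which 28 gave all 3 regions, and state no age. The series' design text says that RNA was pooled to make libraries although each library carries 1 animal label, so how far the spread between libraries is that between animals was not tested.

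Libraries held 38.6 to 58.9 M gene reads (median 49.0 M). Gene levels are in CPM, reads of a gene per M gene reads of the library, after scaling by trimmed mean of M-values (TMM). Summed CPM of 4 cortex markers was 1388 to 2012 in frontal cortex, 267 to 1283 in amygdala and 7.81 to 179 in hypothalamus, and that of 5 hypothalamus markers was 299.8 to 861.5 in hypothalamus and at most 21.0 elsewhere. The sum of 4 amygdala markers was 24.9 to 77.5 in amygdala but 18.7 to 42.2 in frontal cortex and 17.4 to 45.9 in hypothalamus, so these markers separated amygdala from both only in part. In the column headers, all 28 libraries at 30 min carry 1 tag and the other 62 carry another, so time and tag cannot be told apart for 30 min. Each library carries a pair of sequencing indexes, of which the first was spread unevenly over the groups; an index below means the first of the pair, and the part of the other one was not tested.

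In the count table the genes are ENSMUSG00000026678 (Rgs5, on chromosome 1), ENSMUSG00000024620 (Pdgfrb, 18), ENSMUSG00000030247 (Kcnj8, 6) and ENSMUSG00000017344 (Vtn, 11). The contractile genes are ENSMUSG00000035783 (Acta2, 19), ENSMUSG00000032085 (Tagln, 9), ENSMUSG00000067818 (Myl9, 2) and ENSMUSG00000038583 (Pln, 10).

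Start regions are shown for 3 contractile genes and Rgs5, 4 of the 5 genes without overlap in hypothalamus at 120 min, because the CArG box is the best known shared element of contractile genes. They are the 250 bases upstream of the start in RefSeq's table for build GRCm38.p6, in the direction of the gene, with CArG-like sites in capitals. The regions are chr19:34255374-34255623 (minus strand), chr2:156775214-156775463 (plus strand), chr10:53337436-53337685 (plus strand) and chr1:169655251-169655500 (plus strand).
Acta2: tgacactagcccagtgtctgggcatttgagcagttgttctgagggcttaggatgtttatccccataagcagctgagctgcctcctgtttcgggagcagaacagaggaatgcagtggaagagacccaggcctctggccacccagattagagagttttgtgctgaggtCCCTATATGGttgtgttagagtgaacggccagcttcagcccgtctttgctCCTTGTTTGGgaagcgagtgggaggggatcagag
Myl9: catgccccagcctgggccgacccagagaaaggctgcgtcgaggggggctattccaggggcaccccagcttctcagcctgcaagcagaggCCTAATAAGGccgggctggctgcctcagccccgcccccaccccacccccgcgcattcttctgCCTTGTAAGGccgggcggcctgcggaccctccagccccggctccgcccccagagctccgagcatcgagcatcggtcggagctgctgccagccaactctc
Pln: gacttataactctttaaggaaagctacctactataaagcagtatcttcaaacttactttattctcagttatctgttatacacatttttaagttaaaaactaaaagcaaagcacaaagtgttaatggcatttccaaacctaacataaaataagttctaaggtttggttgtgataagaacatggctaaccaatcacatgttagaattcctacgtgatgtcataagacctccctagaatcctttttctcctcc
Rgs5: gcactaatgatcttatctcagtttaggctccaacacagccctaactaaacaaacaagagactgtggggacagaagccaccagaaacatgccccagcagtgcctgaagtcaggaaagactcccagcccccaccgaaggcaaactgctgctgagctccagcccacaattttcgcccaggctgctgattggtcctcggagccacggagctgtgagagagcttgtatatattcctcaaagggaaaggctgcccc

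A site was counted where at least 5 of the 6 bases between the outer CC and GG were A or T, on either strand, in windows of 300 bases, from 250 before to 50 after the start, of 6 of the genes; Tagln and Pdgfrb were not searched. Acta2 held 2 such sites, which begin at positions -84 and -34 from the start, each with 5 of 6 inner bases A or T. Myl9 held 2, with 6 of 6 at position -161 and 5 of 6 at position -99. The letters were not found in the windows of Pln, Rgs5, Kcnj8 or Vtn. Of 32851 promoters searched, 9.98% held at least 1 such site, 0.822% held at least 2, and 1.63% held one with all 6 inner bases A or T. These matches describe sequence only.

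Per transcript length, the pericyte-linked Vtn and Rgs5 were the most abundant of the 8 in every region. In frontal cortex controls at 30 and 60 min (n = 10), Vtn, which encodes the extracellular matrix protein vitronectin, stood at 28.8 ± 1.77 RPKM, the CPM per kilobase of exon (mean ± SD). Rgs5, a regulator of G protein signalling, stood at 25.2 ± 5.15 RPKM, and the libraries of this pair overlapped. Myl9, a regulatory myosin light chain of smooth muscle, followed at 11.2 ± 1.59 RPKM, clear of both neighbours.

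The receptor gene Pdgfrb at 4.17 ± 0.397 RPKM, the smooth muscle actin gene Acta2 at 3.97 ± 0.993 and the actin-binding gene Tagln at 3.71 ± 0.907 did not differ beyond their spread. Kcnj8, a pore subunit of ATP-sensitive potassium channels, was at 1.37 ± 0.0946 RPKM. Pln, which encodes the calcium pump inhibitor phospholamban, was lowest at 0.47 ± 0.119 RPKM. In hypothalamus controls (n = 8) the order began with Vtn at 17.9 ± 4.32 and Rgs5 at 15.9 ± 1.61 RPKM, and ended with Kcnj8 at 0.914 ± 0.0902 and Pln at 0.472 ± 0.205. In amygdala controls (n = 10) Kcnj8 at 1.00 ± 0.163 and Pln at 0.876 ± 0.485 RPKM overlapped. Rgs5 rested on 1762 to 7265 reads per library and Pln on 12 to 263, so the relative counting error was largest for Pln.

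**Figure D1:**
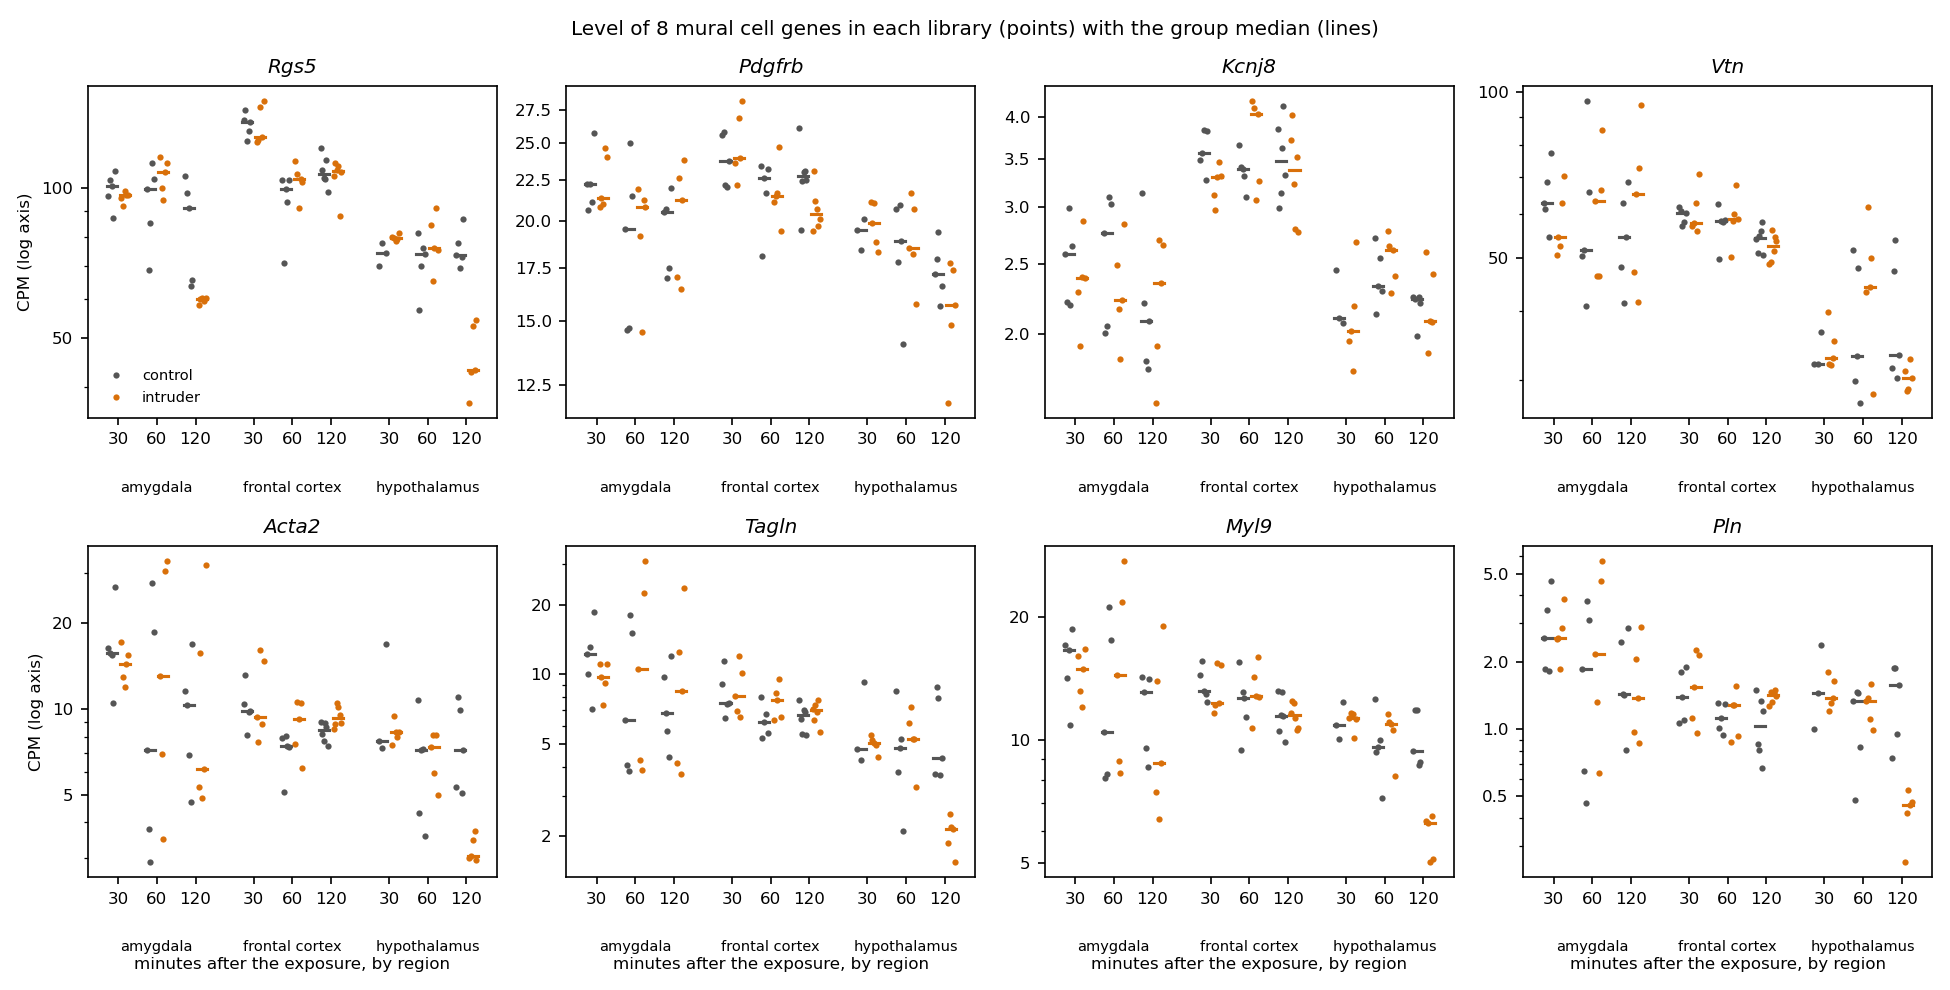
Level of each of the 8 genes in every library, in CPM on a log axis, by region and minutes after the exposure, with grey points for control, orange points for intruder and lines for group medians. In hypothalamus at 120 min the intruder libraries of Rgs5, Acta2, Tagln, Myl9 and Pln lie below all controls, and in amygdala at 120 min those of Rgs5 do so narrowly.

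At 120 min in hypothalamus, the comparison that chose the genes, 5 of the 8 had every intruder library below every control library. Over all 17676 genes tested there, 0.82% had libraries that did not overlap and were lower, and 0.458% higher; because the genes were picked on this contrast, nothing is read from the excess. Rgs5 stood at 73.6, 77.8, 69.2, 72.8 and 86.7 CPM in the 5 controls and at 37.2, 42.9, 53.1, 43.2 and 54.4 CPM in the 5 intruder libraries. The lowest control thus lay above the highest intruder library, and the log2 fold change was -0.72 ± 0.10 (SE).

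The other pericyte-linked genes overlapped between the groups. Pdgfrb was at 17.2, 17.9, 19.4, 15.7 and 16.6 CPM in controls against 11.9, 17.7, 14.8, 17.4 and 15.7, a log2 difference of -0.16 ± 0.10 with 1 intruder library lowest of all. Without that library the log2 ratio of means was -0.08. Vtn was at 31.6, 47.2, 53.9, 30.3 and 33.3 CPM against 31.2, 28.6, 28.9, 32.8 and 30.2, a difference of -0.37 ± 0.18 in which 2 controls stood above the rest. Without control 3, the highest, the log2 ratio of means was -0.23. Kcnj8 differed by 0.02 ± 0.11. Of the 4 pericyte-linked genes, Rgs5 was the 1 whose groups did not overlap.

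All 4 contractile genes were lower without overlap. Acta2 was at 5.32, 11.1, 9.96, 5.06 and 7.16 CPM in controls against 3.00, 3.04, 3.48, 3.73 and 2.96 after intruder, a log2 fold change of -1.25 ± 0.27. Tagln was at 3.70, 8.81, 7.90, 3.70 and 4.34 CPM against 1.88, 2.50, 2.20, 2.16 and 1.55 (-1.47 ± 0.30). For both genes controls 2 and 3 were high, while the intruder libraries kept to a narrow range.

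Myl9 was at 9.42, 11.9, 11.8, 8.68 and 8.85 CPM in controls against 6.35, 6.26, 5.02, 6.53 and 5.13 (-0.79 ± 0.12). Pln, with the largest of the 8 differences, was at 0.744, 1.89, 1.88, 0.949 and 1.58 CPM against 0.253, 0.42, 0.535, 0.459 and 0.472 (-1.71 ± 0.31). The lowest control of each gene again lay above all 5 intruder libraries. In these bulk samples, fewer mural cells and less RNA per cell cannot be told apart. Among controls 3 shared the first index of all 5 intruder libraries, and against those 3 alone the log2 ratio of means was -0.67 for Rgs5, -1.44 for Acta2, -1.73 for Tagln, -0.91 for Myl9 and -1.81 for Pln. For the genes that overlapped, it was -0.23 for Pdgfrb, -0.54 for Vtn and 0.04 for Kcnj8.

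The 120 min intruder libraries were also low beside the intruder libraries at earlier times. Against 30 min, the log2 differences were -0.77 for Rgs5, -1.34 for Acta2, -1.27 for Tagln, -0.92 for Myl9, -1.76 for Pln and -0.34 for Pdgfrb, all 6 without overlap. Over all genes 2.72% were lower without overlap in that comparison. Against 60 min, Rgs5 was lower by -0.76, Acta2 by -1.09, Tagln by -1.40, Myl9 by -0.83 and Pln by -1.57, again without overlap (1.15% of all genes). Hypothalamus controls at 120 min overlapped with those at 30 and 60 min for all 8 genes, beside 4.34% and 0.854% of genes lower and 2.66% and 1.3% higher without overlap.

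Other vascular genes in the same libraries are given next as description, since they rest on the same contrast. Of 10 other contractile genes tested, all had a log2 difference below 0 (median -0.31) and 2 did not overlap. One of those was Myh11, the smooth muscle myosin heavy chain, at -1.24, while the calponin gene Cnn1 at -0.60 overlapped. Of 13 other pericyte genes, 9 were below 0 (median -0.12) and 0 were lower without overlap; the potassium channel subunit gene Abcc9 was at -0.15 and the receptor gene Notch3 at -0.08.

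All 17 endothelial markers were below 0 (median -0.46), 11 of them without overlap, and their summed CPM was 379.5 to 420.1 in controls against 260.3 to 343.3. Pecam1 was at -0.63 and Cd34 at -0.54, both without overlap, and Cldn5, a tight junction gene, at -0.32 with overlap. All 8 markers of fibroblasts and of the leptomeninges, the inner brain coverings, were below 0 (median -1.10); they are called fibroblast markers here. Their sum, however, was 51.3 to 225 CPM in controls and overlapped with 52.2 to 66.0 after intruder. Controls 2 and 3, which were high for Acta2 and Tagln, held the 2 highest fibroblast sums, 160.6 and 225 CPM.

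Dcn at -0.78 and Col1a1 at -0.39 overlapped, as did the red cell gene Hba-a1 at -0.57. No defining endothelial or fibroblast marker was at 0 in any library. The medians were -0.11 for 5 microglia, 0.06 for 5 astrocyte, 0.03 for 5 oligodendrocyte and 0.07 for 4 neuron markers, against 0.0025 over all genes. The 4 serum response factor and coactivator genes had a median of -0.12, and 12 mural recruitment genes one of -0.09. Of 13 measured partners of the member proteins, such as the calcium pump that phospholamban inhibits, 6 were below 0 (median 0.0015). The part of endothelial and fibroblast content in the mural differences was not tested.

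**Figure D2:**
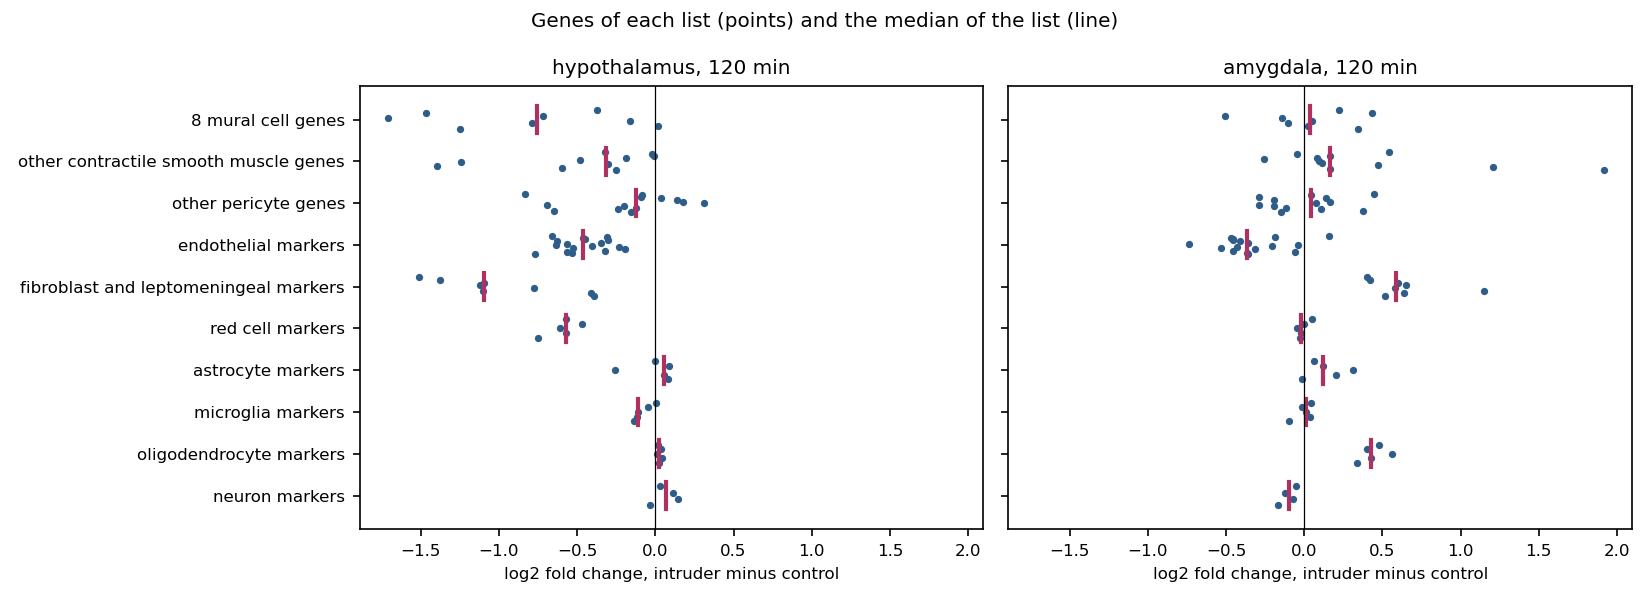
Log2 fold change of intruder minus control at 120 min for each gene (points) of 10 lists, with the list median as a line, in hypothalamus (left) and amygdala (right). In hypothalamus the endothelial markers centre on -0.46 and the fibroblast markers on -1.10, whereas in amygdala they centre on -0.37 and 0.59.

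The question whether the intruder changed mural genes elsewhere was tested in the other 8 combinations of region and time, with edgeR's quasi-likelihood test and Benjamini-Hochberg adjustment over all genes. Of 64 gene-by-comparison tests, 1 was called at an adjusted p below 0.05, Rgs5 in amygdala at 120 min, and the same 1 had an unadjusted p below 0.05. In amygdala at 120 min 0.538% of genes were called, 0.243% as lower, and 2617 genes had an unadjusted p below 0.05. In the other 7 comparisons 0% of genes were called by edgeR, DESeq2 or limma voom, while 339 to 1232 genes had an unadjusted p below 0.05 with edgeR.

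Rgs5 in amygdala at 120 min was at 106, 98.0, 91.3, 63.7 and 65.6 CPM in controls and at 58.4, 60.1, 60.4, 59.4 and 60.2 CPM after intruder. Controls fell into a high set of 3 and a low pair, and the low pair lay just above the intruder libraries, so the groups did not overlap (1.53% of genes were lower without overlap). The log2 fold change was -0.51 ± 0.12 (adjusted p = 0.0379). The call was lost in 8 of 10 fits without 1 library, those without control 1, 2 or 3 or without any 1 intruder library, where the value ranged from -0.52 to -0.43; without control 4 or 6 it was kept, at -0.60 in each. With the first index as a block, where all 5 controls and 1 intruder library shared it, the value was -0.50 and the call was lost (adjusted p = 0.412), and over all alternatives the adjusted p ranged from 0.00304 to 0.412.

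The other 7 genes in amygdala at 120 min overlapped between groups. The contractile genes differed by 0.34 ± 0.58 for Acta2, 0.44 ± 0.52 for Tagln, -0.10 ± 0.31 for Myl9 and -0.14 ± 0.52 for Pln on the log2 scale. Pdgfrb stood at 0.05 ± 0.13, Kcnj8 at 0.02 ± 0.17 and Vtn at 0.22 ± 0.21. These 10 libraries came from the same 10 animals as the hypothalamus libraries at 120 min. The hypothalamus differences given above were -1.25 for Acta2 and -1.71 for Pln; how far the effect differs between these regions was not tested, because the genes were chosen on hypothalamus.

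Beside Rgs5 in amygdala at 120 min, 16 of 17 endothelial markers were below 0 (median -0.37) and 1 was called, Ly6c1 at -0.74 (adjusted p = 0.0132). Their summed CPM was 306.8 to 499.2 in controls and 279.4 to 363.6 after intruder. Control 1 was highest for both Rgs5 and the endothelial sum, and controls 3 and 4 lowest for that sum. All 8 fibroblast markers (median 0.59) and all 5 oligodendrocyte markers (median 0.43) were above 0, and all 4 cortex markers were below it (median -0.42), with 0 of these called. The 13 other pericyte genes had a median of 0.04. The part of cell content in the Rgs5 difference was not tested.

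Whether the Rgs5 effect at 120 min in amygdala differed from that in other groups was tested after its value had been seen. It differed from that in frontal cortex by -0.46 on the log2 scale (adjusted p = 0.90, where 0.0109% of genes were called) and by -0.51 with the animal as a block (adjusted p = 0.242; 0.00545% called). It differed from the effect at 30 min in amygdala by -0.46 (adjusted p = 0.211; 0.139% of genes called) and from that at 60 min by -0.69 (adjusted p = 0.203; 0.0116% called). None of these passed the threshold.

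In frontal cortex, Rgs5 differed by -0.00 ± 0.08 at 30 min, 0.14 ± 0.08 at 60 min and -0.04 ± 0.08 at 120 min. Its mean was 109 ± 7.94 CPM in controls (SD, n = 6) and 105.6 ± 8.94 CPM after intruder (n = 6) at 120 min. The largest frontal cortex value was Pln at 120 min, 0.40 ± 0.21 (adjusted p = 0.945). At 120 min in frontal cortex all 5 choroid plexus markers were above 0 (median 1.40, none called), and controls and intruder libraries carried different first indexes, so first index and condition cannot be told apart there.

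In hypothalamus at 30 min, Rgs5 was at 70.0, 77.7 and 74.1 CPM in the 3 controls and at 80.0, 79.5, 78.4, 79.1 and 81.2 CPM after intruder. The intruder libraries all lay above the controls (1.58% of genes were higher without overlap), yet the difference of 0.11 ± 0.11 on the log2 scale had an adjusted p of 1. Hypothalamus at 60 min gave 0.12 ± 0.10 for Rgs5, with overlap. The contractile genes in hypothalamus ranged from -0.36 ± 0.29 (Acta2 at 30 min) to 0.19 ± 0.28 (Pln at 60 min).

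**Figure D3:**
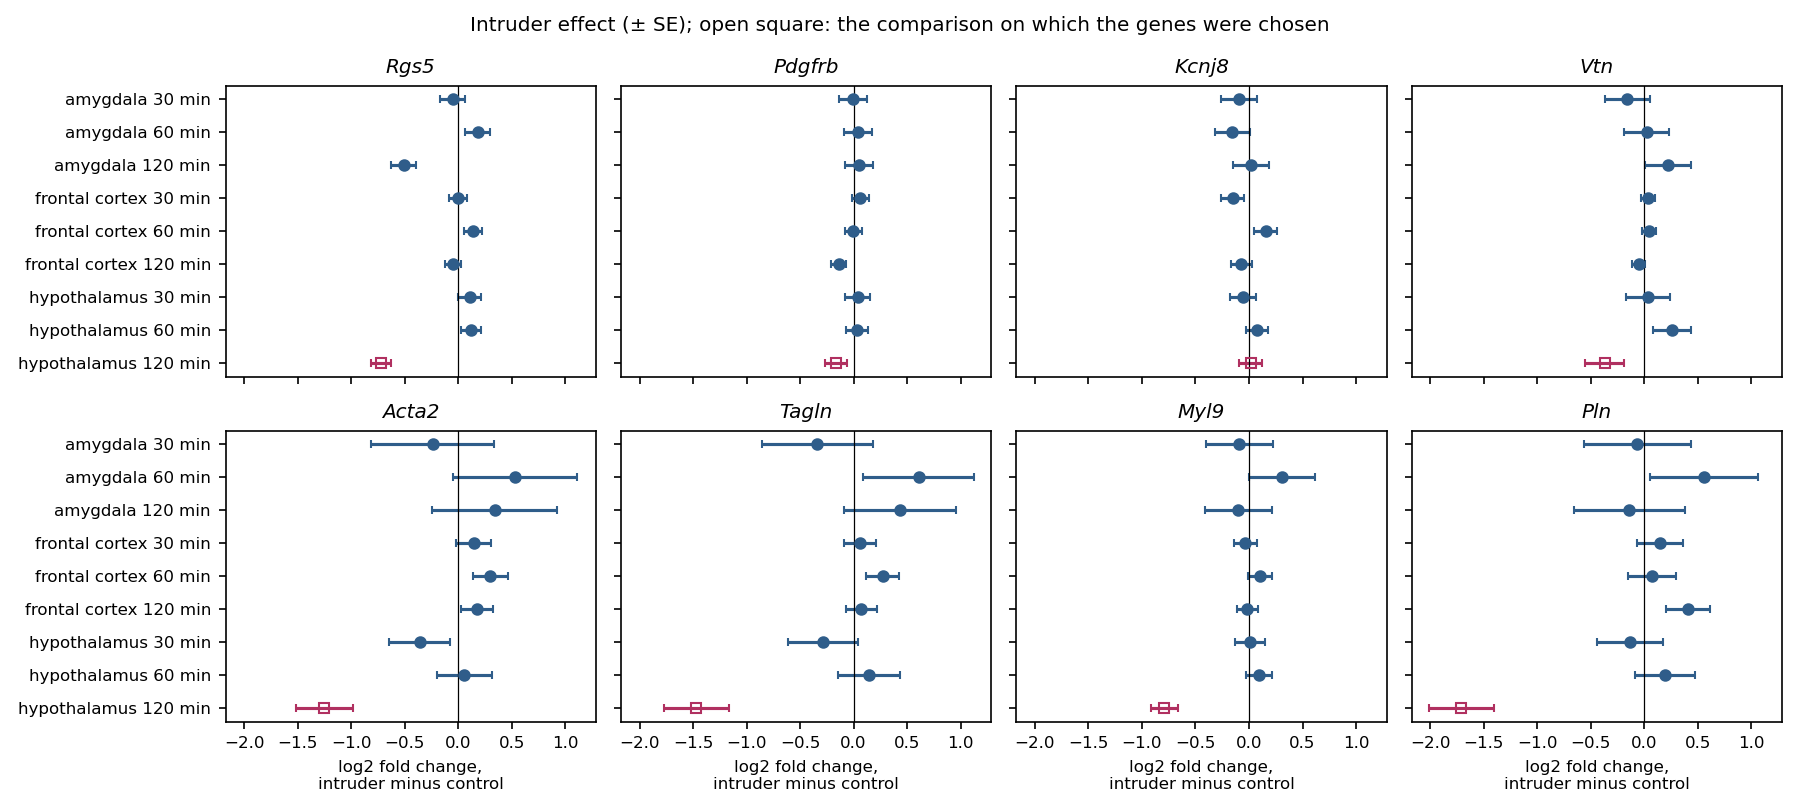
Log2 fold change of intruder minus control (points, bars ± SE) for each of the 8 genes in the 9 combinations of region and time; the open square is the comparison on which the genes were chosen. Outside hypothalamus at 120 min, Rgs5 in amygdala at 120 min (-0.51) was the 1 value called.

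Regional levels were compared in controls at 30 and 60 min, 10 libraries each from frontal cortex and amygdala and 8 from hypothalamus, none of them used to choose the genes. By their labels the regions came from the same mice, but the main fit took the libraries as independent. With the animal as a block, the calls of Myl9 and Acta2 changed, as given below. All 4 pericyte-linked genes were lower in hypothalamus than in frontal cortex. Of the 4 contractile genes 0 were called, with Tagln at -0.43 and Myl9 at -0.34 (adjusted p = 0.0569), but with the animal as a block Myl9 was called (-0.36, adjusted p = 0.045) and Tagln was at -0.54 (adjusted p = 0.0945). Whether the 2 sets of genes differed was not tested. Over all genes 77.1% were called in that comparison, 38.4% as lower, and 4 of the 8 genes were called, all as lower. These libraries of the 3 regions shared no first index, so first index and region cannot be told apart.

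Rgs5 stood at 71.0, 114 and 144 CPM (lowest, median, highest) in frontal cortex, 68.5, 100.4 and 112 in amygdala and 57.0, 74.0 and 81.4 in hypothalamus. The ranges overlapped, with hypothalamus lowest. It was lower in hypothalamus than in frontal cortex by -0.64 ± 0.09 on the log2 scale (adjusted p = 1.45e-07) and than in amygdala by -0.42 (adjusted p = 0.000111). Amygdala was below frontal cortex by -0.23 (adjusted p = 0.014), a call lost without scaling beyond library totals (-0.13, adjusted p = 0.173) and in controls at 60 min alone (-0.01, adjusted p = 0.934).

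Kcnj8 had frontal cortex libraries above those of both other regions, narrowly so for amygdala. It was at 3.094, 3.45 and 3.83 CPM (lowest, median, highest) in frontal cortex, at 2.002, 2.62 and 3.093 in amygdala and at 2.07, 2.31 and 2.71 in hypothalamus. The difference from frontal cortex was -0.61 ± 0.09 in hypothalamus (adjusted p = 7.12e-07) and -0.45 in amygdala (adjusted p = 3.13e-05), and libraries did not overlap in either (22% and 8.15% of genes were lower without overlap). Hypothalamus and amygdala differed by -0.16 and this was not called.

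Vtn was at 49.6, 58.4 and 62.5 CPM in frontal cortex, 40.9, 62.0 and 96.2 in amygdala and 27.3, 32.6 and 51.5 in hypothalamus. It was lower in hypothalamus than in frontal cortex by -0.72 ± 0.13 (adjusted p = 2.03e-05) and than in amygdala by -0.82 (adjusted p = 5.46e-06). Pdgfrb was at 18.1, 22.9 and 25.8 CPM in frontal cortex and 14.1, 19.2 and 20.9 in hypothalamus, with overlap. The difference of -0.28 ± 0.09 (adjusted p = 0.0059) was -0.08 and not called without scaling (adjusted p = 0.465), and -0.24 (adjusted p = 0.0637) in controls at 60 min alone.

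The coefficient of variation of the 4 contractile genes was 32.3% to 59.4% in amygdala, 14.2% to 25.2% in frontal cortex and 16.8% to 51.3% in hypothalamus, and Acta2 and Pln were called higher in amygdala than in frontal cortex. Acta2 was at 5.11, 8.09 and 13.2 CPM in frontal cortex, 2.90, 15.6 and 27.8 in amygdala and 3.58, 7.27 and 16.9 in hypothalamus, so amygdala held both the lowest and the highest library. It was higher in amygdala than in frontal cortex by 0.73 ± 0.30 (adjusted p = 0.0368) and lower in hypothalamus than in amygdala by -0.78 (adjusted p = 0.0386). Both calls ended without single libraries; the amygdala control 5 at 60 min moved them most, to 0.45 and -0.49, and with the animal as a block the first was 0.57 (adjusted p = 0.0897). Both were also lost with limma voom (0.48 and -0.60) and in controls at 30 or 60 min alone, and the second with upper quartile scaling (-0.73).

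Pln was higher in amygdala than in frontal cortex by 0.88 ± 0.29 (adjusted p = 0.0106), at 0.468, 2.22 and 4.63 CPM against 0.946, 1.21 and 1.90. This call was lost with limma voom (0.66, adjusted p = 0.0698) and in controls at 60 min alone (0.79, adjusted p = 0.111). Over all genes 59.6% were called between amygdala and frontal cortex, 30.5% as higher and 29.1% as lower, beside 4 of the 8 called, 2 in each direction. Tagln at 0.55 (adjusted p = 0.0688), Myl9 at 0.12, Pdgfrb at -0.15 and Vtn at 0.10 were not called.

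Between hypothalamus and amygdala, 6 of the 8 genes were called, all lower in hypothalamus, beside 65.9% of all genes called and 33.3% lower. Tagln had the largest difference, -0.98 (adjusted p = 0.004), at 2.12, 4.80 and 9.29 CPM against 3.81, 11.2 and 18.5; in controls at 30 min alone it was not called (-1.005, adjusted p = 0.0576). Pln differed by -0.83 (adjusted p = 0.0217), a call that ended without the amygdala control 5 at 60 min (-0.64) or the hypothalamus control 2 at 30 min (-0.70), with limma voom (-0.68) and in controls at 30 or 60 min alone (-0.83 and -0.82). Myl9 differed by -0.46 (adjusted p = 0.0139), at 7.22, 10.04 and 12.6 CPM against 8.05, 15.4 and 21.2. The Acta2 and Myl9 calls were lost without scaling beyond library totals and in controls at 30 or 60 min alone, where Myl9 was at -0.49 and -0.43.

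Of 17 endothelial markers, 15 were called lower in hypothalamus than in frontal cortex (median -0.44; 38.4% of all genes were lower), 8 lower in amygdala than in frontal cortex (median -0.24; 29.1% of all genes) and 7 lower in hypothalamus than in amygdala (median -0.23; 33.3% of all genes). Of 8 fibroblast markers, 3 were called higher in amygdala than in frontal cortex (median 0.57), near the 30.5% of all genes called higher, and 7 were called lower in hypothalamus than in amygdala (median -0.92; 33.3% of all genes).

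Myh11 likewise was higher in amygdala than in frontal cortex by 0.76 (adjusted p = 0.0175) and lower in hypothalamus than in amygdala by -0.68 (adjusted p = 0.042). Of 11 other contractile genes, 5 were called higher and 1 lower in amygdala than in frontal cortex (median 0.53), where 30.5% of all genes were called higher and 29.1% lower. Of 13 other pericyte genes, 4 were called higher and 6 lower in hypothalamus than in frontal cortex, where 77.1% of all genes were called, 38.4% as lower. Notch3 was higher there, by 0.71 (adjusted p = 1.13e-05), the opposite direction to Pdgfrb. The part of vessel and fibroblast content in these regional differences was not tested.

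**Figure D4:**
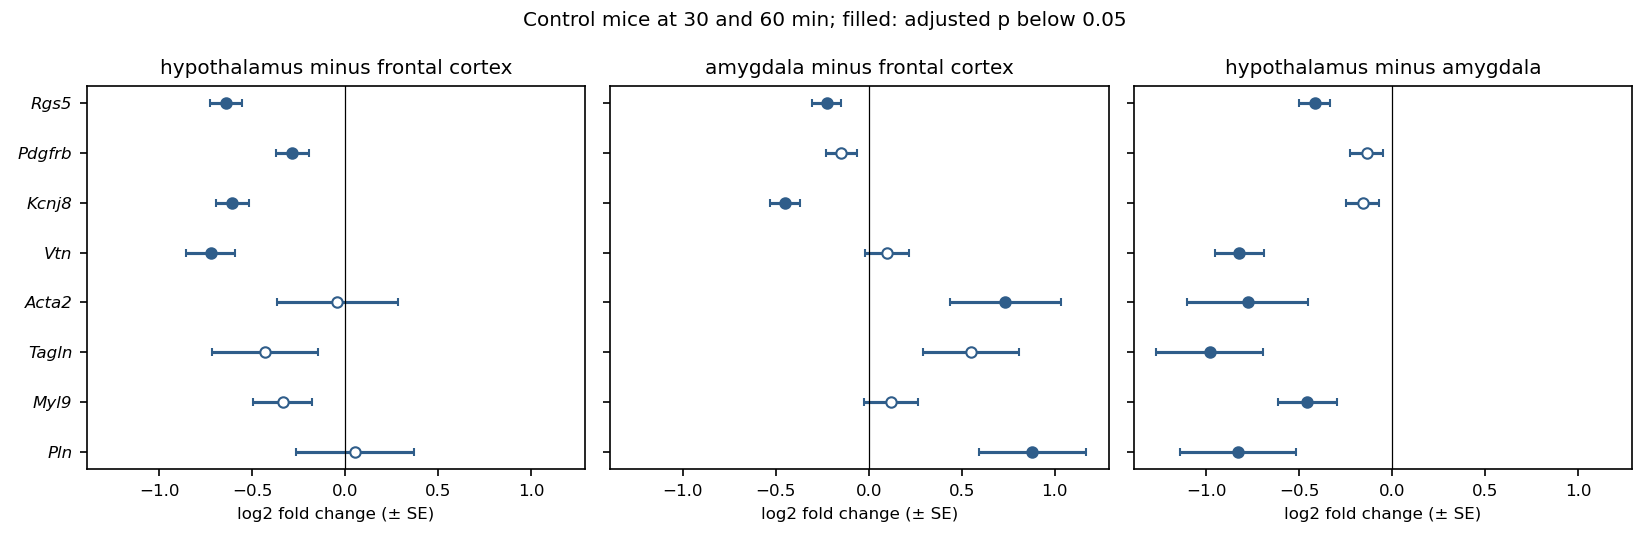
Log2 fold change between regions (points, bars ± SE) for the 8 genes in controls at 30 and 60 min; filled points have an adjusted p below 0.05. The 4 pericyte-linked genes at the top are lower in hypothalamus than in frontal cortex, and Acta2 (0.73) and Pln (0.88) are higher in amygdala than in frontal cortex.

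Time after the exposure was the other factor. In frontal cortex controls, Rgs5 and Acta2 were called across the 3 times (adjusted p = 0.000162 and 0.0358), 2 of 8 beside 33.4% of all genes. Rgs5 was at 137, 144, 124, 130.5 and 136 CPM at 30 min, at 104, 71.0, 99.9, 94.1 and 104 at 60 min, and at 98.2, 107 and 121 (lowest, median, highest of 6) at 120 min. Every 30 min library lay above every later one (12.2% of genes were lower without overlap at 60 min and 2.9% at 120 min). The change from 30 to 60 min was -0.52 ± 0.08 (adjusted p = 4.21e-05, where 35.4% of genes were called), and that from 30 to 120 min was -0.32 (adjusted p = 0.019; 4.42% called), a call lost without the control 2 at 30 min or the control 6 at 120 min.

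Intruder-exposed frontal cortex gave the same direction for Rgs5, at 124, 125, 146, 127 and 149.7 CPM at 30 min, 113, 107, 91.5, 104 and 103 at 60 min, and 88.0, 108 and 113 (lowest, median, highest of 6) at 120 min. The level fell by 0.38 to 60 min (adjusted p = 0.00038; 45.5% of genes called) and by 0.36 to 120 min (adjusted p = 0.00286), both without overlap (7.87% and 4.03% of genes were lower without overlap). Across the 3 times, Rgs5, Pdgfrb and Vtn were called (adjusted p = 0.000313, 0.00656 and 0.00684), 3 of 8 beside 46.1% of all genes.

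Pdgfrb in intruder-exposed frontal cortex was at 23.6, 22.2, 26.9, 23.9 and 28.2 CPM at 30 min and at 19.5, 20.4 and 23.0 CPM (lowest, median, highest of 6) at 120 min. Vtn was at 57.1, 57.9, 62.9, 55.9 and 70.9 CPM at 30 min and at 48.6, 52.5 and 56.1 at 120 min. Both overlapped slightly, and they fell by 0.28 (adjusted p = 0.00954) and 0.24 (adjusted p = 0.0106), beside 17.7% of all genes called. At 30, 60 and 120 min, the median summed CPM of oligodendrocyte markers in these groups was 2881, 4504 and 4428. It was 150.3, 117.1 and 123.7 for fibroblast, 94.57, 152.3 and 96.42 for red cell and 608.1, 630.9 and 591.7 for endothelial markers. The part of cell content in these falls was not tested.

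Among the contractile genes in frontal cortex controls, Acta2 was at 10.4, 13.2, 8.12, 9.74 and 9.88 CPM at 30 min and at 7.89, 5.11, 8.05, 7.44 and 7.35 CPM at 60 min. The groups did not overlap, though the lowest 30 min and the highest 60 min library were close, and the level fell by 0.53 on the log2 scale (adjusted p = 0.0129). Tagln fell by 0.41 (adjusted p = 0.039), from 6.50 to 11.4 CPM at 30 min to 5.32 to 7.98 CPM at 60 min, with overlap. The Acta2 call was lost without the control 2 at 30 min (adjusted p = 0.0626) or the control 2 at 60 min (0.0511), and the Tagln call without any 1 of 6 libraries and in 4 of 7 other alternatives; without the control 2 at 30 min Tagln was at -0.27 (adjusted p = 0.196). Beside them Myh11 fell by 0.89 (adjusted p = 0.000184), 7 of 17 endothelial markers were lower and 1 higher, 6 of 8 fibroblast markers were lower, and all 5 red cell and all 5 oligodendrocyte markers were higher (medians 0.59 and 0.77), in a comparison where 35.4% of all genes were called. The 30 min libraries carry the other header tag and other first indexes, so these cannot be told apart from time.

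In amygdala controls 0 of the 8 genes were called across the times by edgeR, DESeq2 or limma voom, and 0 had an unadjusted p below 0.05 with edgeR (0.232% of all genes called). Of all 17277 genes, 1881 had an unadjusted p below 0.05. In intruder-exposed amygdala, Rgs5 was called (adjusted p = 0.000147; 12.9% of genes), at 95.7, 92.1, 99.0, 96.9 and 97.1 CPM at 30 min and 116, 100.1, 94.8, 108 and 112 at 60 min. The 120 min libraries given above, 58.4 to 60.4 CPM, lay below all of these (6.53% and 0.891% of genes were lower without overlap than at 30 and 60 min). The change was -0.69 from 30 min (adjusted p = 0.000391; 15% of genes called) and -0.84 from 60 min (adjusted p = 0.000768; 0.0695% called); with the first index as a block neither was called (-0.52, adjusted p = 0.596, and -0.72, adjusted p = 0.591). Beside the first, 12 of 17 endothelial markers were lower (median -0.57), among them Ly6c1 by -0.78 and Cldn5 by -0.93. These values share libraries with the intruder comparison at 120 min.

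In hypothalamus between 30 and 60 min, 0 of the 8 genes were called in controls (0.017% of all genes) or after intruder (0.0792%) by edgeR, DESeq2 or limma voom. With edgeR, 1 had an unadjusted p below 0.05 in controls, Acta2 at -0.67, and 2 after intruder, Kcnj8 at 0.27 and Vtn at 0.42. Of all 17676 genes, 1334 in controls and 1546 after intruder had an unadjusted p below 0.05. The drop of Rgs5 from 30 to 60 min in controls was larger in frontal cortex than in hypothalamus by -0.47 ± 0.17 (adjusted p = 0.0446), 1 of 8 beside 21.7% of all genes. That call was lost in 13 of 18 fits without 1 library (range over the 18 fits -0.55 to -0.39). With the animal as a block in edgeR it was kept, at -0.51 (adjusted p = 0.0013). Against amygdala the difference for Rgs5 was -0.43 (adjusted p = 0.0576, 17.1% of genes called), so 0 of the 8 genes were called. With edgeR 1 had an unadjusted p below 0.05, beside 5468 of 17861 genes. DESeq2 called 1, limma voom 0, and edgeR with the animal as a block called Rgs5 (adjusted p = 0.002).

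Within groups, the contractile genes varied together from library to library. Over 90 libraries, with log2 CPM centred on each of the 18 groups, the 6 pairs of contractile genes had Pearson r of 0.773 to 0.944 (median 0.895). The 6 pairs of pericyte-linked genes had r of 0.192 to 0.72 (median 0.39), and the 16 mixed pairs 0.309 to 0.813 (median 0.556). These are descriptions: the points share libraries, depth scaling and dissections. By region, amygdala had the highest contractile median (0.949), ahead of hypothalamus (0.771) and frontal cortex (0.651), and the pericyte-linked median was 0.568, 0.14 and 0.374 in that order.

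Among 14137 genes with a median of at least 1 CPM, those most like Acta2 were Myh11 (r = 0.959), Tagln (0.944) and Myl9 (0.921). Tagln was most like Acta2, Myl9 (0.939) and Myh11 (0.902), and Pln was most like Acta2 (0.868), Myh11 (0.846) and Tagln (0.81). The contractile genes thus had each other and Myh11 as nearest genes. Rgs5 was most like Slco1a4 (0.756), an organic anion transporter used here as an endothelial marker, Slco1c1 (0.729) and Ets1 (0.723).

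Pdgfrb was most like Fzd6 (0.83), Pear1 (0.829) and Plekhg2 (0.81). Vtn was most like Bgn (0.93), Col3a1 (0.913), a collagen gene in the fibroblast list, and Slc22a8 (0.907). Kcnj8 had the weakest likeness, to Ly6a (0.644), Lims2 (0.639) and Arpc1b (0.633). The summed level of the endothelial list had r of 0.778 with that of the pericyte-linked genes and 0.692 with that of the contractile genes, and the fibroblast list 0.624 and 0.647. In the same animal, Rgs5 in amygdala and in frontal cortex had r of 0.635 (Spearman's rho 0.489, n = 30), whereas the other pairs of gene and regions ranged from -0.278 to 0.28. Control 2 at 60 min was the lowest Rgs5 library of its group in amygdala (68.5 CPM), frontal cortex (71.0 CPM) and hypothalamus (57.0 CPM). How far r rests on that animal was not tested.

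**Figure D5:**
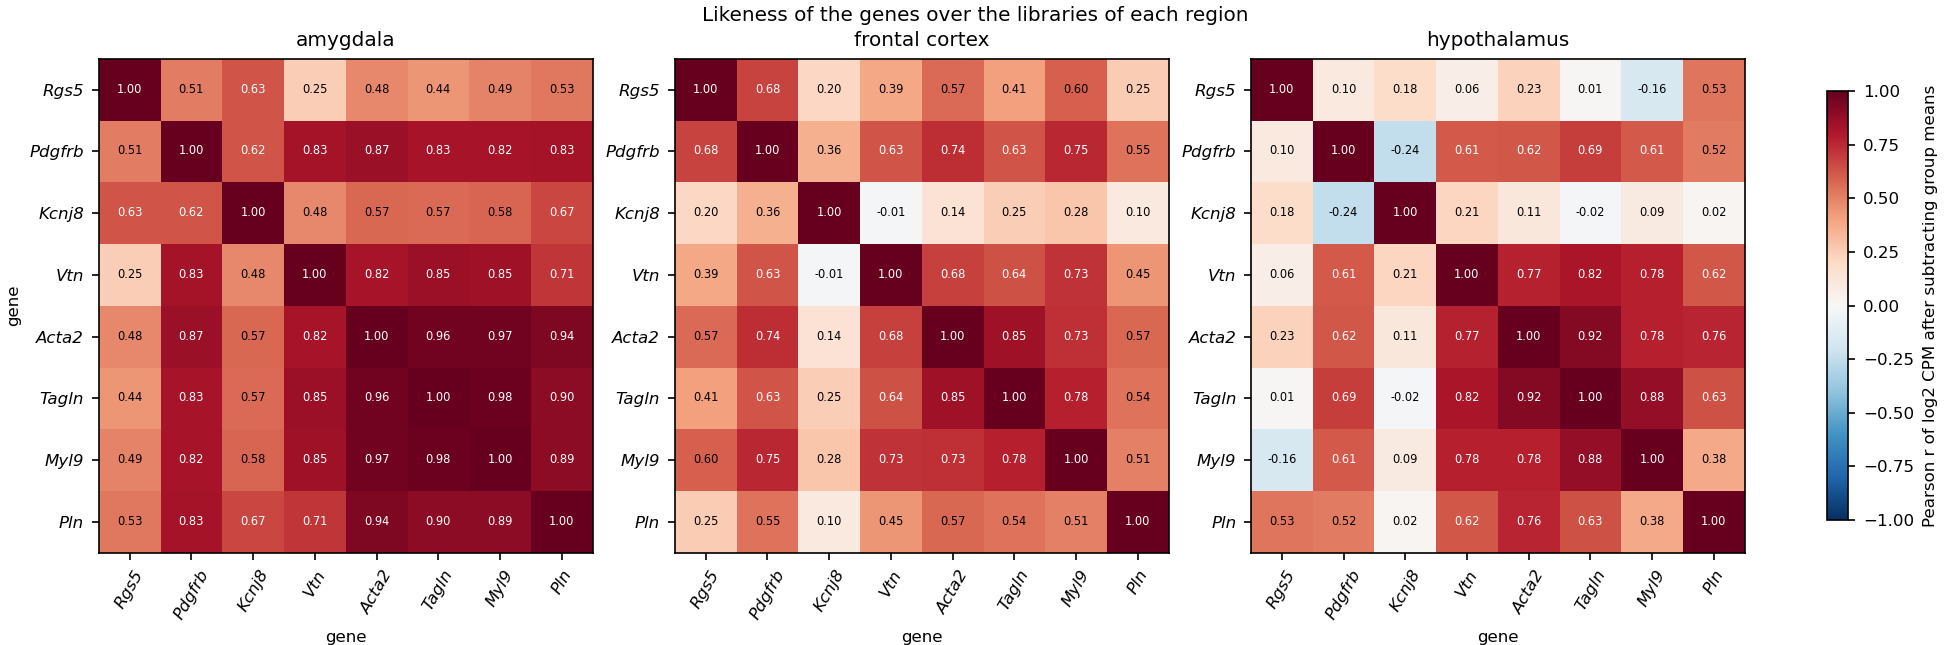
Pearson r between the 8 genes over the libraries of each region, of log2 CPM after subtracting group means; colour and printed value give r. The 6 pairs of contractile genes at the lower right have a median of 0.949 in amygdala, 0.771 in hypothalamus and 0.651 in frontal cortex, where the pairs with Pln are lowest, while Rgs5 and Kcnj8 in hypothalamus are weakly related to most others.

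The contractile genes spread widely between amygdala libraries at 60 min. Acta2 there was at 7.19, 3.79, 2.90, 27.8 and 18.6 CPM in controls and at 13.02, 6.96, 3.51, 30.5 and 33.2 CPM after intruder, so libraries of 1 group differed more than the groups did. The summed contractile genes were at 25.9, 16.5, 15.4, 70.8 and 54.3 CPM in controls, and at 40.1, 21.4, 16.3, 79.2 and 97.2 CPM after intruder. The control library with the highest contractile sum, control 5, also had the highest fibroblast sum (375 CPM against 90.5 to 195.8) and the highest endothelial sum (516 against 324.8 to 486). In intruder libraries, the highest contractile sum came with the highest fibroblast sum, 297 CPM, and the highest endothelial sum, 513 CPM. The part of vessel and meningeal tissue in this spread was not tested.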

How the data were processed

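Poly(A) RNA of frontal cortex, hypothalamus and amygdala was sequenced as 90 stranded, single-end libraries after Trizol extraction and DNase treatment, per the labels' protocols. The values deposited by the authors are raw counts, whole numbers of reads per Ensembl gene. The submitters' processing notes list CASAVA 1.8.2, TopHat2 2.0.8, HTSeq 0.6.1, edgeR 3.2.4, R 3.0.0 and build NCBIM37, without roles. The 5 class totals in the table were left out; reads without a feature were 8.63% to 14.5% of a library's total. Reads that align in several places were 9.79% to 11.5%, so genes with close copies may be undercounted. Symbols came from Gencode M21, which named 32919 identifiers.

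Each region was fitted with edgeR 4.0.16 (R 4.3.3), with 6 groups of condition by time, filterByExpr, TMM scaling and two-sided quasi-likelihood F tests. Controls of the 3 regions at 30 and 60 min were fitted together (17861 genes; 17277 in amygdala, 17091 in frontal cortex, 17676 in hypothalamus). Called genes had a Benjamini-Hochberg adjusted p below 0.05 over all genes of a fit. RPKM used merged exon lengths of Gencode M21. Alternatives were DESeq2 1.42.0, limma voom (limma 3.58.1), other scalings, no filter, blocks of replicate number, animal or first library index, and leaving out each library. The common coefficient of variation of the amygdala fit was 14.1%. At 120 min there, that of the 4 contractile genes was 22.4% to 46.6% in controls and 47.3% to 90.7% after intruder. How large a change of these genes would be called was not tested.

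The members, companion lists and tests were chosen with earlier results of these data known. Genes named are the 8 members, fixed defining markers, up to 3 called genes of a list with the smallest adjusted p, and the 3 genes most like each member. For likeness, log2 CPM had a prior count of 2. Same-numbered libraries of control and intruder were not paired, since in no combination of region and time did every pair correlate above 0.1. In amygdala at 60 min r of the 4 pairs was 0.005 to 0.491, so this rule does not show that same-numbered libraries are unrelated. Promoters came from RefSeq, GRCm38.p6. Reads carry no molecular identifiers.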

Additional observations from a re-analysis of the deposited data

Results flagged for a closer look

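Over 136 sets of values, each 1 gene in a group of 5 or 6 libraries, 4 single libraries stood apart by Dixon's criterion, where chance gives about 1 in 20 groups. Acta2 was at 5.11 CPM in control 2 of frontal cortex at 60 min, against 7.35 to 8.05 in the other 4. Kcnj8 was at 1.99 CPM in control 3 of hypothalamus at 120 min, against 2.21 to 2.25; this group is among those that chose the genes, so its value is a description. Myl9 was at 10.1 CPM in intruder library 3 of hypothalamus at 30 min, against 11.2 to 11.6. Rgs5 was at 88.0 CPM in intruder library 5 of frontal cortex at 120 min, against 105.7 to 113. These are 4 different libraries.

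The change of Rgs5 from 30 to 60 min in controls differed between frontal cortex and hypothalamus by -0.47 on the log2 scale (edgeR, adjusted p = 0.0446), a call lost in 13 of 18 fits without 1 library. With the animal as a block in edgeR the call was kept, at -0.51 (adjusted p = 0.0013).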

How the results depend on the processing

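Of 28 called gene results, 671 alternative values were computed, of which 575 kept the call, 96 lost it and 0 changed sign. The 1 intruder call outside hypothalamus at 120 min became 0 without scaling beyond library totals (Rgs5 at -0.50, adjusted p = 0.0553), without the filter (-0.51, 0.0579), with limma voom (-0.48, 0.0608), with the first library index as a block (-0.50, 0.412; frontal cortex at 120 min could not be fitted) and with the 2 groups alone (-0.51, 0.213), so the log2 value moved little from -0.51. The count of genes called in amygdala at 120 min was 93, but 413 with DESeq2, 80 with limma voom, 12 without the filter and 0 with the index block. With the replicate number as a block it was 199, and Rgs5 was called (adjusted p = 0.0399). Whether same-numbered libraries share more than the number was not tested (pair r from -0.503 to 0.557 over all regions and times). Members called between amygdala and frontal cortex were 4, but 2 with limma voom. In alternatives chosen after seeing the data, that count was 1 in controls at 60 min alone, and the 6 between hypothalamus and amygdala became 2 at 30 min and 3 at 60 min alone. Across times, frontal cortex controls had 2 members called and 1 with the replicate block over all times, also added after seeing the data; intruder-exposed amygdala had 1 and 0 with the index block. For the 60 minus 30 min change, frontal cortex against amygdala gave 0 called but 1 with DESeq2, the animal as a replicate block or all 90 libraries, and frontal cortex against hypothalamus gave 1 but 0 with upper quartile scaling or no filter; the cause was not tested. Leaving out 1 library at a time gave 0 to 1 intruder calls, 4 to 5 for hypothalamus against frontal cortex, 3 to 5 for amygdala against frontal cortex, 4 to 7 for hypothalamus against amygdala, 1 to 3 and 3 to 4 across times in frontal cortex controls and intruder mice, and 0 to 1 for both changes between regions. Without scaling the median of all genes moved to 0.21, 0.106 and 0.105 in the 3 regional comparisons. A block of replicate number within time could not be estimated for changes over time. Depth limits Pln most, with 12 reads in 1 library.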
